A study of Mus musculus with 12 samples.

Results

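Interferon-stimulated genes are genes whose transcription is switched on by interferons. A set of 37 of them, chosen by name, was followed in GFP(+) liver cells before and after bile duct ligation (BDL), the tying of the bile duct that blocks bile flow and leads to fibrosis. All 37 are among the 16971 genes of the deposited table, and all 37 passed a minimum of 10 normalized counts summed over the libraries, which 12891 genes passed. GFP(+) cells were sorted by FACS from livers of Prom1CreERT2-nLacZ/+;Rosa26Lsl-GFP/+ mice on the C57BL/6 background, 6 weeks old according to the methods, in which tamoxifen turns on GFP in cells that transcribe *Prom1* and in their descendants. Tamoxifen was given 7 days before the Day 0 collection or the ligation, so the time from tamoxifen to sorting was longer in the BDL groups. The groups were Day 0 (called sham in the labels and before BDL in the methods), BDL day 3 and BDL day 14. All mice carried both alleles, no strain without them was sequenced, and the label marks whatever cells had active Cre at the time of tamoxifen.

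The table gives 1 mean per group of upper-quartile normalized counts, as the authors computed it, and it rests on 3 Day 0, 3 BDL day 3 and 4 BDL day 14 libraries out of 12 labelled ones. It has 0 columns of values for single libraries, so no value per mouse could be given and no replicate test could be run here, depth is unknown, and every group value below is the authors' mean. The table also gives the geometric mean and the highest count over the 10 libraries. The gap between that geometric mean and the one the group means alone would give allowed an SD between libraries to be estimated for each gene on the log2 scale, taken as equal in all groups, with 7 degrees of freedom. The paper describes more variability between replicates at BDL day 14 than at Day 0, so equal spread may not hold. Standard errors (SE) below come from this SD estimate and serve as a yardstick only. A gene is counted as higher or lower where its group means differed by more than 1.5-fold.

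Type I and type III interferons signal through receptor-bound JAK kinases to a transcription factor complex that includes STAT2 and IRF9 and binds the interferon-stimulated response element (ISRE) near its target genes. Interferon gamma acts on its target genes through the gamma-activated site (GAS). The products block viral entry, degrade viral RNA, sense foreign nucleic acid or attack the vacuoles of intracellular pathogens, and many are made at a low level in the absence of infection. In liver, Kupffer cells (the resident macrophages), other leukocytes, endothelial cells and hepatocytes can all make them.

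The interferon-stimulated genes were lower after BDL. Of the 37, 33 had their highest mean at Day 0, against 38.5% of all genes kept. Another 4 (*Bst2*, *Dhx58*, *Ifitm3* and *Irf7*) had it at BDL day 3, against 30.1%, and 0 at BDL day 14, against 31.4%. The median group mean went from 55.2 normalized counts at Day 0 to 26.4 and then 19.8 at the BDL times, and the summed means took 0.343%, 0.273% and 0.152% of all normalized counts. The lowest mean came at BDL day 14 for 30 of the 37, a count for which no share over all genes kept was computed.

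At BDL day 3, 26 of the 37 were lower than at Day 0 and 0 were higher. Over all genes kept, 29.2% were lower and 19.2% higher, and under quantile normalization of the group means 21.1% were lower and 26.7% higher. The median log2 ratio was -1.02 for the 37 and -0.02 for all genes kept. For 22 of the 37 the ratio also exceeded 2 estimated SE, which held for 15.0% of all genes kept. Among the 7094 genes whose Day 0 mean lay in the same range as theirs (10.5 to 559), 20.6% were lower.

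At BDL day 14, 35 of the 37 were lower than at Day 0 and 0 were higher, where 28.8% of all genes kept were lower and 21.2% higher (23.2% and 28% under quantile normalization). The median log2 ratio was -1.49 for the 37 and -0.04 for all genes kept, and for 32 of them (16.8% of all genes kept) the ratio passed 2 estimated SE as well. In the same range of Day 0 means, 23.5% of genes were lower. The remaining pair, *Gbp2* and *Irf9*, also had lower means, within 1.5-fold.

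Between BDL day 3 and BDL day 14 the genes parted. Of the 37, 14 were lower at BDL day 14 and 1, *Gbp7*, was higher, beside 19.7% lower and 21.2% higher among all genes kept. For 10 of the 14 the difference passed 2 estimated SE (10.6% of all genes kept). The median log2 ratio was -0.44 for the 37 and 0.00 for all genes kept. The comparisons against Day 0 share the same Day 0 libraries, so they are not independent of each other.

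**Figure D1:**
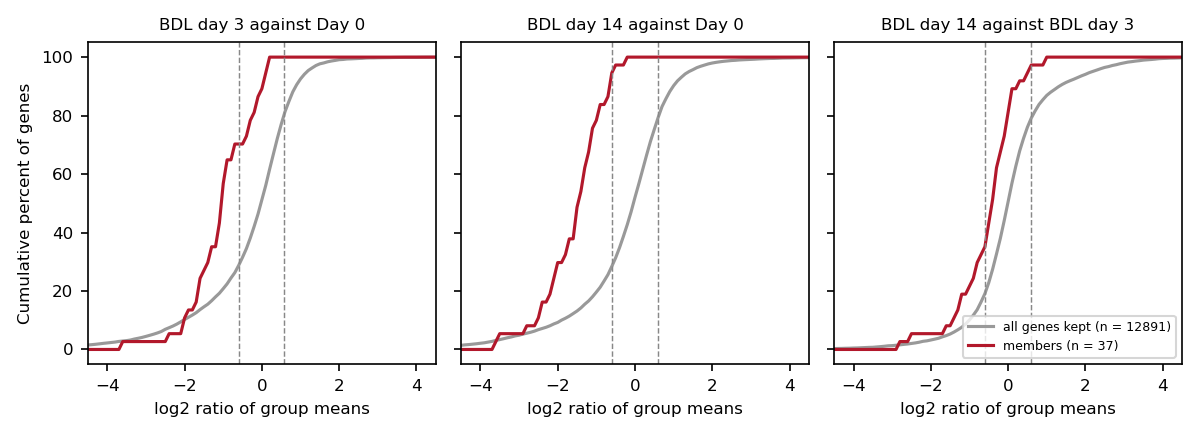
Cumulative percent of genes (vertical axis) at or below each log2 ratio of group means (horizontal axis) for the 3 comparisons, with the 37 interferon-stimulated genes in red, the 12891 genes kept in grey and dashed lines at 1.5-fold either way. The red curves cross their medians at -1.02, -1.49 and -0.44, to the left of the grey ones, while at the lowest ratios they lie at or below the grey curves.

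The genes fell into 3 patterns. The largest group, of 26, was lower at both times (*Cmpk2*, *Ddx58*, *Gbp3*, *Gbp7*, *Herc6*, *Ifi44*, *Ifih1*, *Ifit1*, *Ifit2*, *Ifit3*, *Igtp*, *Irgm1*, *Isg15*, *Mx1*, *Mx2*, *Oas2*, *Oas3*, *Oasl2*, *Parp14*, *Rsad2*, *Samd9l*, *Stat2*, *Trim30a*, *Usp18*, *Xaf1* and *Zbp1*). Against Day 0 its median log2 ratio was first -1.24 and then -1.56. A second group of 9 was within 1.5-fold of Day 0 at BDL day 3 and lower at BDL day 14 (*Bst2*, *Dhx58*, *Ifi35*, *Ifitm3*, *Irf1*, *Irf7*, *Oas1a*, *Oasl1* and *Rtp4*). Its medians were -0.02 and -1.32, and 8 of the 9 were also lower at BDL day 14 than at BDL day 3, all but *Irf1*. *Gbp2* and *Irf9* stayed within 1.5-fold at both times. These groups were formed from the ratios themselves and describe them.

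Promoters were searched for the letters of both elements, because they are the sequences this pathway acts through. RefSeq promoters of GRCm38.p6, running from 250 bases before to 50 bases after the start site, were given for 29 of the 37 genes. None was given for *Dhx58*, *Mx1*, *Mx2*, *Oas2*, *Parp14*, *Rtp4*, *Usp18* and *Zbp1*. The ISRE was searched as GAAANNGAAA and GAS as TTCNNNGAA on both strands. ISRE letters were present in 17 of the 29 promoters (58.6%) and in 3.99% of the 27025 promoters given for all genes. GAS letters were present in 8 of the 29 (27.6%) and in 9.55% of all.

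The following stretches upstream of the start site show the ISRE letters, in capitals, in genes of several roles and of both main patterns, 5′ to 3′ along the strand of the gene. TTTC runs are the same element read on the other strand. None of these stretches overlaps an exon annotated in GENCODE M21. *Isg15*, *Ifit1*, *Ifit3*, *Oas3*, *Rsad2*, *Stat2* and *Igtp* were lower at both times, and *Bst2* and *Oas1a* at BDL day 14.
Isg15, chr4:156200855-156200916, minus strand: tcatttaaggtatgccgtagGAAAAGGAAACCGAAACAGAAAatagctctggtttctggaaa
Ifit1, chr19:34640765-34640833, plus strand: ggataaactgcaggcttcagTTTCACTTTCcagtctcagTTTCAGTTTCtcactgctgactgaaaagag
Ifit3, chr19:34583353-34583436, plus strand: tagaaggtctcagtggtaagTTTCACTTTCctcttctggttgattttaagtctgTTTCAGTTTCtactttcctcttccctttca
Oas3, chr5:120777705-120777754, minus strand: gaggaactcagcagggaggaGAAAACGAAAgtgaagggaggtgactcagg
Rsad2, chr12:26456543-26456592, minus strand: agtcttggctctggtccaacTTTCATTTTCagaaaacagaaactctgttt
Stat2, chr10:128270256-128270305, plus strand: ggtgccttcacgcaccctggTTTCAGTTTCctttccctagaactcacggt
Igtp, chr11:58199502-58199551, plus strand: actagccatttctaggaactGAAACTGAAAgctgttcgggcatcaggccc
Bst2, chr8:71537567-71537622, minus strand: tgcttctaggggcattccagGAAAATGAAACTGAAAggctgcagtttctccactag
Oas1a, chr5:120907526-120907565, minus strand: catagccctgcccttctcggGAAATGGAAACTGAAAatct

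*Irf1* had no ISRE letters in its window and is shown for its GAS letters, which lie from 90 to 82 bases before the start site.
Irf1, chr11:53769904-53769952, plus strand: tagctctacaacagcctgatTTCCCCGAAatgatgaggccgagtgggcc

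The capitals in *Isg15* hold 3 overlapping matches and lie from 78 to 57 bases before the start site. The pair of matches in *Ifit1* spans 104 to 76 bases before it, and those in *Oas1a* overlap and end 5 bases before it. In *Bst2* and *Igtp* GAS letters stand beside the ISRE, in *Bst2* overlapping it. Of the 27 ISRE matches in all, 22 began before the start site and 20 within 150 bases of it.

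ISRE letters were found in genes of both main patterns. They were in 13 of the 20 promoters given for genes lower at both times, and in 3 of the 7 (*Bst2*, *Ifitm3* and *Oas1a*) given for genes lower at BDL day 14 alone. The 17 genes with ISRE letters had medians of the log2 ratio of -1.08 and -1.20 against Day 0 (BDL day 3 first). The 12 with a promoter but without these letters had medians of -0.97 and -1.91. A match is a string of letters and no binding was measured.

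**Figure D2:**
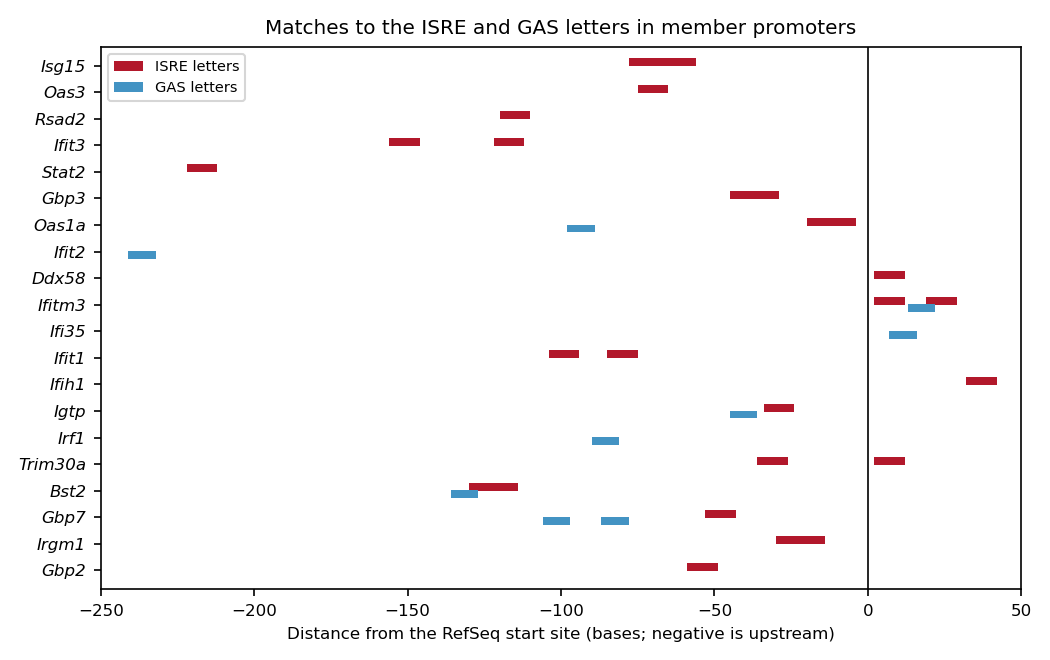
Positions of ISRE letters (red) and GAS letters (blue) in the 20 promoters of interferon-stimulated genes that hold either, as distance in bases from the RefSeq start site, with genes ordered by their log2 ratio at BDL day 14 from the lowest (top). Most ISRE matches, 22 of 27, lie upstream of the start site.

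All 3 genes of the IFIT family, whose member IFIT1 binds viral RNA with a foreign cap and blocks its translation, were lower at both times. They lie side by side on chromosome 19, from 34550694 (*Ifit2*) to 34650009 (*Ifit1*) in mm10. *Ifit3* had means of 116, 51.9 and 32.0 normalized counts (Day 0, BDL day 3 and BDL day 14, the order kept below), log2 ratios of -1.16 ± 0.56 (estimated SE) and -1.86 ± 0.52. *Ifit2* had means of 36.0, 17.8 and 14.6, with ratios of -1.02 ± 0.45 and -1.30 ± 0.42. *Ifit1* had means of 15.1, 4.47 and 6.68. Its ratio at BDL day 14, -1.18 ± 0.70, was within 2 estimated SE, as was that between the BDL groups, 0.58 ± 0.70. *Ifit1* and *Ifit3* have close copies in the genome (*Ifit1bl1* and *Ifit3b*), and how shared reads were counted is not given in the sources used here.

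The OAS family makes the enzymes that turn double-stranded RNA into oligoadenylates, the activators of RNase L, together with the OAS-like proteins. All 5 lie on chromosome 5, *Oasl2* and *Oasl1* between 114896936 and 114937915 and *Oas2*, *Oas3* and *Oas1a* between 120730333 and 120907521. The family differed within itself. *Oas2* had the lowest ratio at BDL day 14 of the 37 genes, with means of 87.7, 21.3 and 6.85, ratios of -2.04 ± 0.42 and -3.68 ± 0.39, and a 12.8-fold lower mean at BDL day 14. Without its highest library, which came from Day 0 and held 59.3% of the Day 0 counts, the ratios of *Oas2* were -1.33 and -2.97, and *Ifi44* then had the lowest at BDL day 14, at -3.23. *Oas3*, its neighbour, had means of 46.1, 15.2 and 10.3, ratios of -1.60 ± 0.38 and -2.16 ± 0.35. Both thus were lower already at BDL day 3.

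*Oasl1*, which restrains translation of *Irf7* mRNA, was flat and then low, at 32.1, 31.7 and 5.39, with ratios to Day 0 of -0.02 ± 0.31 and -2.57 ± 0.29. *Oasl2*, its neighbour, had means of 72.9, 24.9 and 16.5 and the widest estimated spread of the 37, an SD of 1.14. Its ratio at BDL day 3, -1.55 ± 0.93, did not pass 2 estimated SE, and that at BDL day 14, -2.14 ± 0.87, did. *Oas1a* had means of 128, 115 and 49.2 (-0.15 ± 0.54 and -1.38 ± 0.50). Oas1-type genes are a cluster of copies, *Oas1g* among them, so part of these reads may belong to neighbours.

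*Isg15*, the ubiquitin-like protein joined to other proteins after interferon, had means of 73.0, 13.4 and 13.2. Its log2 ratios were -2.45 ± 0.88 at BDL day 3 and -2.47 ± 0.83 at BDL day 14, more than 5-fold lower at both times. From the group mean and the highest count of any library (86.4), the lowest Day 0 library cannot be under 44.2 and the highest BDL day 3 library cannot be over 40.4. *Isg15* was the 1 gene of the 37 for which these bounds keep Day 0 and BDL day 3 apart (1.68% of all genes kept). For 0 of the 37 did they keep Day 0 and BDL day 14 apart (1.44%), so for the other genes the table does not tell whether single libraries overlapped.

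The other genes of the ISG15 pathway were lower too. *Herc6*, the main ligase for ISG15 in mice, had means of 21.7, 6.70 and 5.28. Its ratios of -1.70 ± 0.16 and -2.04 ± 0.15 were, with those of *Ifih1*, the most tightly estimated of the 37. *Usp18*, which takes ISG15 off and dampens interferon receptor signalling, had means of 23.6, 14.2 and 8.28. Its ratio was within 2 estimated SE at BDL day 3 (-0.73 ± 0.47) and beyond it at BDL day 14 (-1.51 ± 0.44).

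Of the Mx genes, which encode dynamin-like GTPases that trap viral particles, *Mx2* was the clearer. Its means were 10.5, 4.18 and 2.22, ratios of -1.33 ± 0.55 and -2.24 ± 0.52. *Mx1* had means of 22.1, 13.6 and 14.1, and neither ratio (-0.70 ± 0.44 and -0.65 ± 0.41) passed 2 estimated SE. C57BL/6 mice are known to carry a defective *Mx1* allele, and the gene annotation used by the authors lists *Mx2* as a polymorphic pseudogene.

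Of the 11 other antiviral effectors, 7 were lower at BDL day 3 and all 11 at BDL day 14, each of these beyond 2 estimated SE. Over all genes kept, 15.0% and 16.8% were lower by both limits. *Ifi44*, an interferon-induced protein that can slow cell growth, had the lowest ratio of the 37 at BDL day 3. Its means were 18.4, 1.51 and 1.60, ratios of -3.61 ± 0.85 and -3.52 ± 0.79, or 12.2-fold and 11.5-fold lower. *Samd9l*, a restriction factor for poxviruses, had means of 112, 26.8 and 21.1 (-2.06 ± 0.62 and -2.41 ± 0.58). *Rsad2*, whose product viperin makes a chain-terminating nucleotide from CTP, had means of 53.3, 13.7 and 13.2 (-1.96 ± 0.42 and -2.01 ± 0.39). *Cmpk2*, a mitochondrial nucleotide kinase, lies next to *Rsad2* on chromosome 12 (26442746 to 26479837 for the pair). It too was lower at both times, with means of 11.3, 5.15 and 4.03.

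*Parp14*, a mono-ADP-ribosyltransferase, had means of 96.8, 44.9 and 32.8 (-1.11 ± 0.28 and -1.56 ± 0.26). *Xaf1*, which opposes the apoptosis inhibitor XIAP, had means of 70.6, 37.2 and 20.6. *Trim30a*, a regulator of Toll-like receptor signalling, had means of 52.8, 26.4 and 28.1, so its lower level was already reached at BDL day 3. *Trim30a* also belongs to a cluster of copies, such as *Trim30d*.

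The remaining 4 effectors were near their Day 0 level at BDL day 3. *Ifitm3*, a membrane protein that stops viruses from fusing with endosomes, had means of 559, 617 and 243 (0.14 ± 0.34 and -1.20 ± 0.31). *Bst2*, or tetherin, which holds budding virions at the cell surface, had means of 165, 169 and 95.4 (0.03 ± 0.27 and -0.79 ± 0.26). Per kilobase of exon these were the highest of the 37 at Day 0, 824 and 183 normalized counts, and both stayed the highest at BDL day 14, at 358 and 106. *Rtp4*, a chaperone that also restricts viral replication, had means of 103, 81.5 and 35.0, and *Ifi35*, 60.6, 52.9 and 26.4. All 4 were lower at BDL day 14 than at BDL day 3 as well, *Ifitm3* by a log2 ratio of -1.34 ± 0.31.

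**Figure D3:**
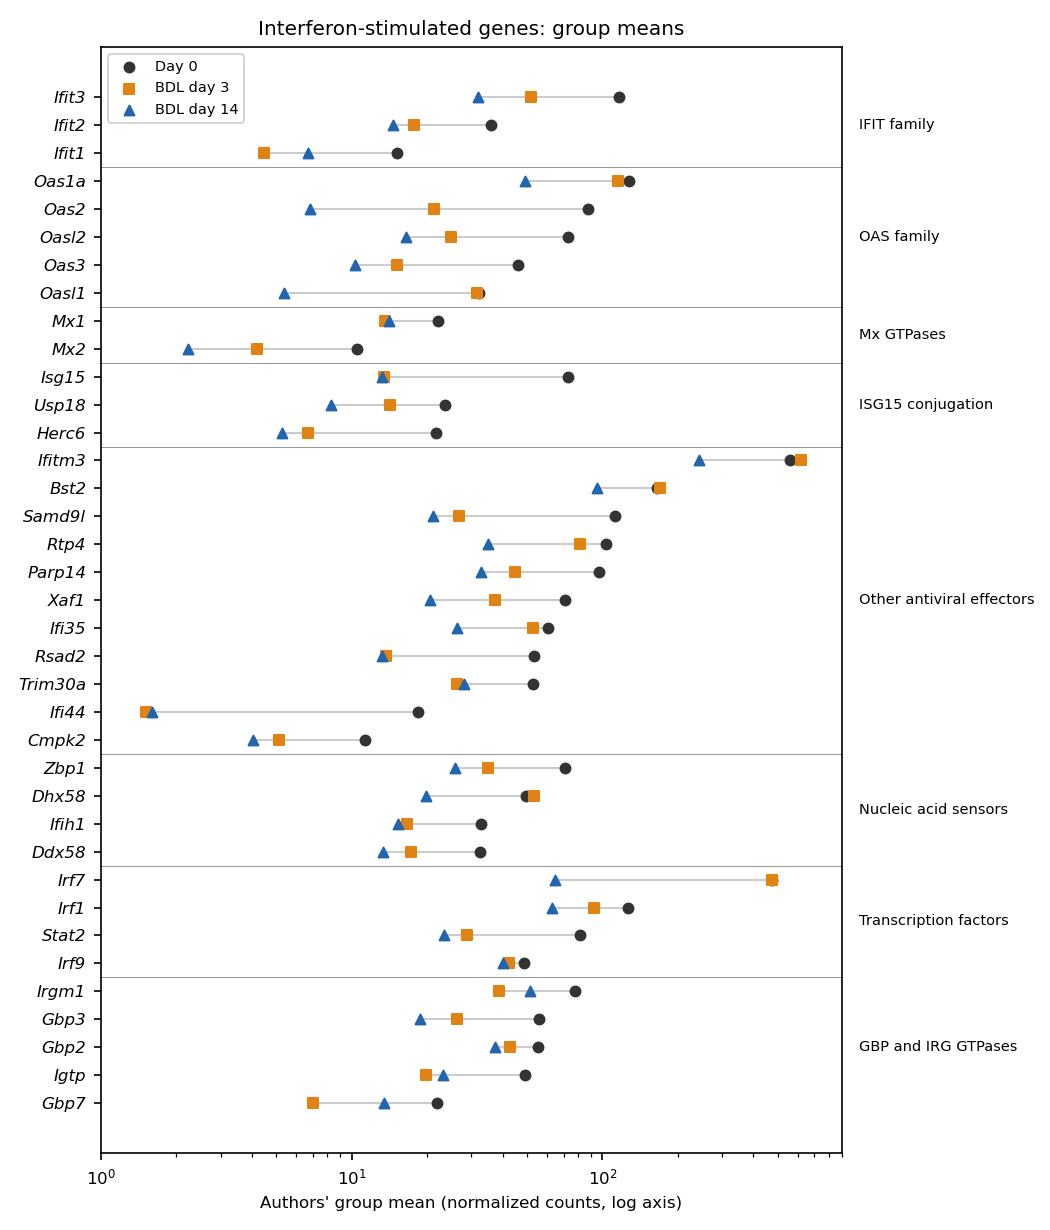
Authors' group means of the 37 interferon-stimulated genes in normalized counts (log axis) at Day 0 (black circles), BDL day 3 (orange squares) and BDL day 14 (blue triangles), grouped by role, with grey lines joining the lowest and highest mean of a gene. For *Irf7*, *Oasl1* and *Bst2* the Day 0 and BDL day 3 symbols nearly coincide and the BDL day 14 symbol lies apart at the left.

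Among the nucleic acid sensors, those that start interferon production differed from their regulator. *Ifih1* (MDA5) had means of 32.9, 16.6 and 15.3 and tightly estimated ratios of -0.99 ± 0.16 and -1.10 ± 0.15. *Ddx58* (RIG-I) had means of 32.6, 17.2 and 13.3 (-0.92 ± 0.33 and -1.29 ± 0.31). *Zbp1*, the sensor of Z-form nucleic acid that can trigger necroptosis, had means of 71.0, 35.1 and 25.9, with a wide SE at BDL day 3 (-1.02 ± 0.68). *Dhx58* (LGP2), which tunes the other two RNA helicases, had means of 49.4, 53.5 and 19.8, thus no lower mean at BDL day 3 (0.12 ± 0.28) and a lower one at BDL day 14 (-1.32 ± 0.26). *Dhx58* overlaps the exons of an antisense gene, *Dhx58os*, and strand use in counting is not given in the sources used here.

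The transcription factors differed in timing. *Irf7*, the amplifier of type I interferon production, had means of 473, 475 and 64.7, a log2 ratio of 0.01 ± 0.30 at BDL day 3 and of -2.87 ± 0.28, or 7.31-fold lower, at BDL day 14. Under quantile normalization its ratio at BDL day 3 was -0.41 and that of *Ifitm3* was -0.33, both still within 1.5-fold. Exons of *Irf7* overlap *Phrf1* on the opposite strand. *Stat2*, the STAT particular to type I and III signalling, was lower at both times, at 81.2, 28.8 and 23.4 (-1.5 ± 0.33 and -1.79 ± 0.31). Its partner *Irf9* had means of 48.8, 42.4 and 40.2, and its ratios of -0.20 ± 0.36 and -0.28 ± 0.34 were within 1.5-fold. *Irf1*, a prompt target of interferon gamma, had means of 126, 92.4 and 63.1 (-0.45 ± 0.33 and -1.0 ± 0.31).

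The guanylate-binding proteins (GBP) and immunity-related GTPases (IRG), which coat and break the vacuoles of intracellular pathogens and respond most to interferon gamma, number 5 of the 37 genes. The median of their log2 ratios to Day 0 was -1.08 in the BDL day 3 group and -0.70 in the BDL day 14 group. *Gbp7* had means of 21.9, 7.02 and 13.5, and was higher at BDL day 14 than at BDL day 3 by a log2 ratio of 0.94 ± 0.30. *Igtp* (49.2, 19.8 and 23.1) and *Irgm1* (77.7, 38.6 and 51.2) also had means at BDL day 14 above those at BDL day 3, by less than 1 estimated SE. The ratio of *Irgm1* at BDL day 14, -0.60 ± 0.44, passed 1.5-fold narrowly and was within it under median-ratio scaling.

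The other GBP genes had their lowest mean at BDL day 14. *Gbp3* had means of 55.7, 26.3 and 18.8 (-1.08 ± 0.33 and -1.57 ± 0.31). *Gbp2* had means of 55.2, 42.7 and 37.4, with ratios of -0.37 ± 0.65 and -0.56 ± 0.61, so neither a change nor its absence can be read for it. *Gbp7*, *Gbp3* and *Gbp2* are neighbours on chromosome 3 (142530342 to 142638008). The exons of *Igtp* overlap those of *Irgm2* on the same strand, so their reads may be mixed.

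**Figure D4:**
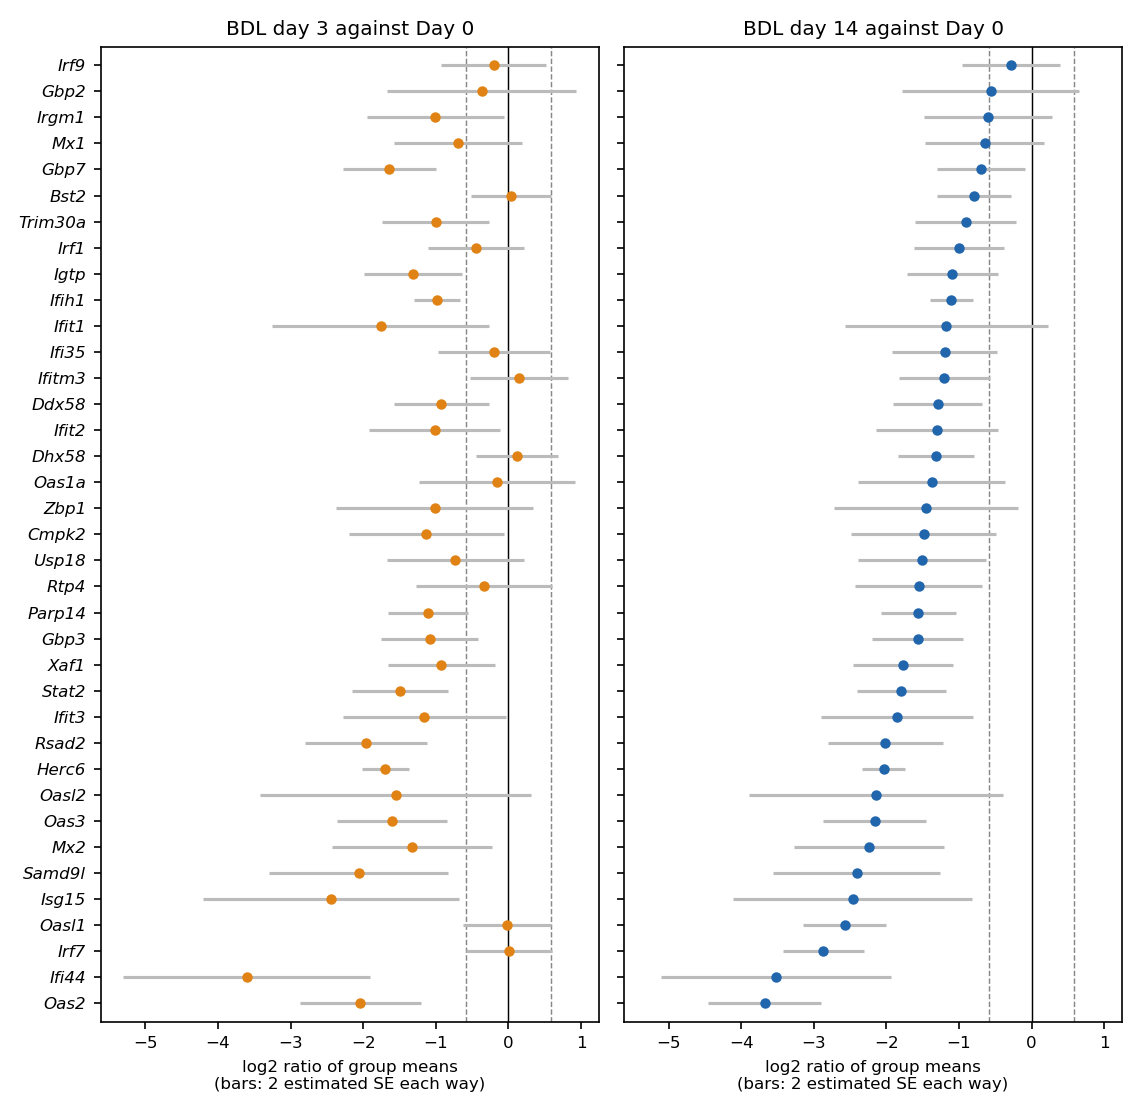
Log2 ratio of group means for each of the 37 genes at BDL day 3 (left) and BDL day 14 (right) against Day 0, ordered by the ratio at BDL day 14, with bars of 2 estimated SE each way and dashed lines at 1.5-fold. All 37 points lie below 0 at BDL day 14 and 33 do at BDL day 3, where *Irf7*, *Oasl1*, *Dhx58*, *Bst2* and *Ifitm3* lie near 0.

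Single libraries weighed on some Day 0 means. For 10 of the 37 genes (*Herc6*, *Ifi44*, *Isg15*, *Mx2*, *Oas2*, *Oas3*, *Oasl2*, *Rsad2*, *Samd9l* and *Stat2*) the highest count of all libraries was too high to belong to a BDL library and so came from Day 0, which held for 10.4% of all genes kept. That library took between 37.2% and 59.3% of the summed Day 0 counts of the gene, where an equal share is 33.3%. The highest share was that of *Oas2*, with a highest count of 156. Without that library all 10 genes were still lower at both times, with medians of -1.45 (BDL day 3) and -1.93 (BDL day 14). Picking genes by a count too high for a BDL library favours low BDL means, so this gives no independent support. Whether the highest library was the same one for each gene is not in the table.

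A separate list of interferon signalling genes did not, as a whole, share the course of the interferon-stimulated genes. Of 23 interferon signalling genes kept, 5 were higher and 3 lower at BDL day 3 (19.2% and 29.2% of all genes kept). At BDL day 14, 7 were higher and 6 lower (21.2% and 28.8% of all genes kept). The median log2 ratios of the 23 were 0.23 and 0.13. Some upstream factors are not in this list because they were counted among the interferon-stimulated genes. Of these, *Stat2*, *Irf7*, *Ifih1* and *Ddx58* were lower at BDL day 14 (log2 ratios of -1.79, -2.87, -1.10 and -1.29). *Irf9* was within 1.5-fold (-0.28). The type I interferon receptor chain *Ifnar1* had means of 40.2, 67.2 and 110, log2 ratios of 0.74 ± 0.26 and 1.45 ± 0.24, while its targets were lower. *Ifnar2* had means of 122, 204 and 150. The interferon gamma receptor chain *Ifngr1* had means of 266, 280 and 297, and *Ifngr2* of 46.7, 96.6 and 79.3. *Il10rb*, the chain that lambda interferon shares with IL-10, had means of 202, 281 and 215. No receptor chain kept was therefore lower at either time.

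The kinases *Jak1* (182, 155 and 251), *Jak2* (28, 22.4 and 31.2) and *Tyk2* (21.8, 25.5 and 20.8) were within 1.5-fold of Day 0 at both times. Of the kinases that activate IRF factors, *Tbk1* (34.4, 45.5 and 34.4) was within 1.5-fold at both times, and *Ikbke* (41.9, 29.5 and 20) was within it at BDL day 3 (-0.51 ± 0.51) and lower at BDL day 14 (-1.07 ± 0.47). *Ifng*, the gene of interferon gamma, had means of 1.26, 0.286 and 0.105, under the minimum for comparison, and the means at both BDL times were at the floor, read as up to 4 times the lowest mean of the group. *Ifnlr1*, the lambda receptor chain, was also under the minimum. The type I and lambda interferon genes looked up (*Ifna1*, *Ifna2*, *Ifna4*, *Ifnb1*, *Ifnl2* and *Ifnl3*) were not found among the genes of the deposited table, so no values can be given.

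A list of 60 other interferon-induced genes, of which 59 were kept, also held more lower than higher genes against Day 0. It was chosen with earlier results of these data known, so it gives no independent support. At BDL day 3, 36 were lower (29.2% of all genes kept) and 1, *Ifi30*, a thiol reductase of antigen processing, was higher (19.2%). The median log2 ratio was -0.84. At BDL day 14, 44 were lower (28.8% of all genes kept) and 0 higher (21.2%), with a median of -1.12. The lowest at BDL day 14 were *Ifi205* (74.2 at Day 0 and 3.24), *Isg20*, an RNA exonuclease (66.4 and 5.58) and *Iigp1*, an IRG GTPase (90.5 and 12.1). *Tgtp2* (68.2 and 9.06) and *Gbp4* (40.2 and 5.55) were, with *Isg20*, the lowest at BDL day 3. *Helz2* had means of 138, 135 and 24.9, near its Day 0 level and then low, as *Irf7* had. It was, with *Ifi205* and *Oas1g* (41.5 at BDL day 3 and 10.8 at BDL day 14), the lowest between the BDL groups. At the upper end of the comparisons against Day 0 stood, besides *Ifi30*, *Ly6e* (807, 1210 and 469), *Oas1c* (6.58, 9.62 and 8.02), *Nampt* (85.0 at Day 0 and 105 at BDL day 14) and *Ms4a6b* (62.2, 35.9 and 92.5). *Ms4a6b* was also the highest between the BDL groups, followed by *Slfn1* (5.37 and 12.9) and *Ms4a4c* (6.96 and 13.7), with SE that left the latter pair within 2 estimated SE.

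**Figure D5:**
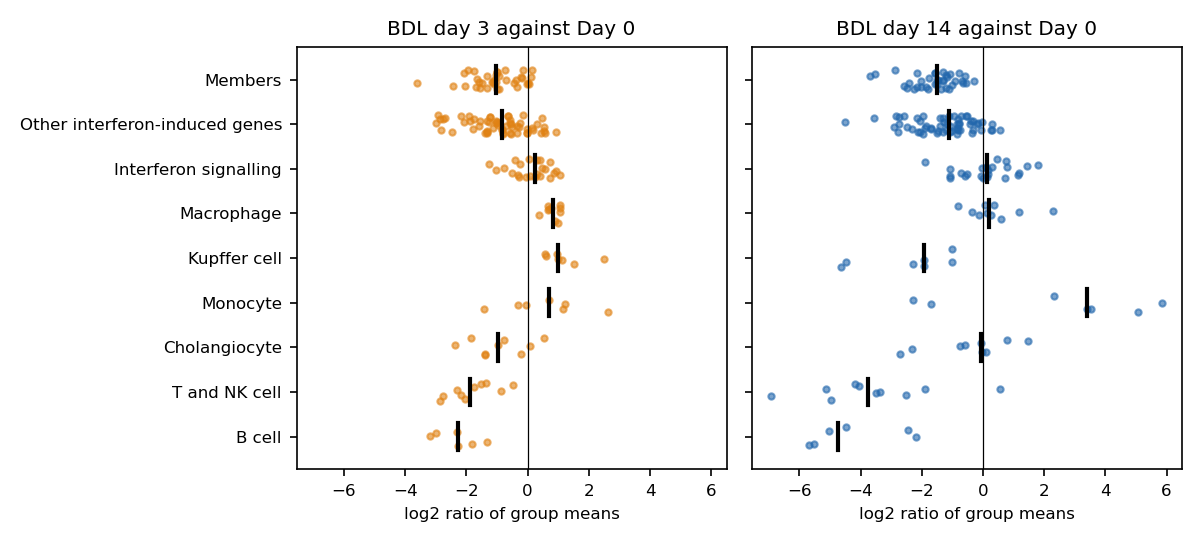
Log2 ratio of group means at BDL day 3 (left) and BDL day 14 (right) against Day 0, with 1 point for each gene kept of the 37 interferon-stimulated genes (members), 2 related lists and 6 cell type marker lists, and black lines at the medians. The interferon-stimulated genes have medians of -1.02 and -1.49, and Kupffer cell genes have medians of 1.00 and -1.92.

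Cell type markers differed between the groups as well. The labels call the cells *Prom1*-expressing progenitors and their progeny, but per kilobase of exon the median of 10 macrophage markers was 725, 1312 and 676 normalized counts in the order of the groups. That of 12 cholangiocyte markers was 1.85, 1.28 and 2.47, with single markers from 0.201 to 279 at Day 0. The means of these 12 summed to 630, 311 and 946, of which *Spp1* made up 459, 175 and 792. Only 9 of the 12 passed the minimum count. Compared with Day 0, the BDL day 3 group had 6 of these 9 lower and 0 higher. In the BDL day 14 group 4 were lower and 2 higher, with a median log2 ratio of -0.05. The means of 7 Kupffer cell markers summed to 9849, 21933 and 1596, and all 7 were lower at BDL day 14 than at either earlier time. Those of 7 monocyte markers summed to 353, 481 and 1841. Against Day 0, 4 of the 7 were higher and 1 lower at BDL day 3, and 5 were higher and 2 lower at BDL day 14. The Kupffer cell sum was higher at BDL day 3, when 26 interferon-stimulated genes were already lower. It was lower at BDL day 14, when 9 more of them were. Other marker lists also differed at these times, as given below, and none was tested against either pattern. In these bulk samples, fewer cells of a type and less RNA per cell cannot be told apart.

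Most lymphocyte markers were lower at both times, where 29.2% (BDL day 3) and 28.8% (BDL day 14) of all genes kept were. The means of 10 T and NK cell markers summed to 151, 45.2 and 20.3, with 9 of 10 lower at each time. The difference passed 2 estimated SE for 2 of them at BDL day 3 and 9 at BDL day 14, when *Ncr1* was at the floor. The means of 6 B cell markers summed to 376, 89.8 and 55.6, all 6 lower at each time. For 4 of them at BDL day 3 and 6 at BDL day 14 the difference passed 2 estimated SE, with *Pax5* at the floor at BDL day 14. Plasmacytoid dendritic cell markers summed to 211, 193 and 131, mostly from *Bst2*, which is one of the 37. Of the 4 kept, 3 were lower and 0 higher at BDL day 3, and 2 were lower and 1 higher at BDL day 14. Hepatocyte markers summed to 4250, 2092 and 1328 and neutrophil markers to 541, 267 and 168. Mesenchymal markers summed to 1317, 23.8 and 124, with all 10 lower at each time and a median log2 ratio of -5.64 at BDL day 3. Sinusoidal endothelial markers summed to 991, 580 and 941, with 6 of 7 lower at BDL day 3 and 2 of 7 at BDL day 14. Dendritic cell markers summed to 350, 338 and 961, and a single marker made up 325 of the Day 0 sum. Of the 6 dendritic cell markers kept, 4 were lower and 1 higher at BDL day 3, and 1 was lower and 5 higher at BDL day 14. The part of these cells in the ratios of the interferon-stimulated genes was not tested.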

How the data were processed

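GFP(+) cells (100000 per sample) were sorted, and mRNA libraries were made with a TruSeq kit. According to the methods and the labels, the authors worked in Partek Flow, where reads were trimmed for quality, mapped to mm10 by STAR (2.6.1d in the submitters' processing notes; the methods give another release), assigned to GENCODE M18 genes and scaled by the upper quartile method. The deposited signal values are group means of normalized counts, with the mean, geometric mean and highest count over 10 libraries. The 21 columns of the authors' 3 comparisons (p-values, FDR, ratios, fold changes and limits) were not used. Columns of single libraries numbered 0.

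Log2 ratios of group means were computed without a pseudocount (Python 3.11.15, pandas 2.3.3, numpy 2.4.6). Weighting the group means by 3, 3 and 4 libraries gave back the deposited mean within 0.469% for 99% of genes. The planned tests over libraries could not be run on means. SD were estimated as described above, a measure added after the table was seen, and the steps were tested on simulated data. All 37 genes are named. From the other interferon lists, the interferons, receptors and kinases are named, with the 3 highest and 3 lowest induced genes of each comparison; 1 gene that the rule also names is not reported here. The genes and lists were chosen with earlier results of these data known. *Ncr1* and *Pax5* were named after their values were seen. The alternatives dropped the filter, asked for a mean of 10 or more, or used a pseudocount of 1, a 2-fold threshold, or median-ratio or quantile scaling.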

Additional observations from a re-analysis of the deposited data

How the results depend on the processing

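No paired analysis was possible because the table gives group means and no values per library. A labelled replicate could not be left out. Leaving out the highest library of the 10 genes for which it came from Day 0, a setting chosen after seeing the data, gave 26 and 35 lower genes, as before. That setting left the means of the other genes unchanged, and the 10 were picked by a high Day 0 count. Against Day 0, 0 genes were higher under every alternative run (no filter, a mean over the libraries of at least 10, a pseudocount of 1, median-ratio scaling, quantile normalization and a 2-fold threshold). The 26 and 35 lower genes became 20 and 29 at a 2-fold threshold, 22 and 31 with a mean of at least 10, which fewer of the 37 pass, 27 and 36 under quantile normalization, and 26 and 34 under median-ratio scaling. Between the BDL groups, the 14 lower genes became 8 and the 1 higher gene 0 at a 2-fold threshold, which asks for a larger difference, and the higher genes became 2 (*Gbp7* and *Ifit1*) under median-ratio scaling. Quantile normalization moved the median log2 ratio of all genes kept from -0.02 to 0.12 at BDL day 3 and from -0.04 to 0.10 at BDL day 14, and the medians of the 37 genes were then -1.11 and -1.54. It also put *Irf1* past 1.5-fold at BDL day 3 and *Gbp2* at BDL day 14. A mean of at least 10 kept 7289 genes, with medians of 0.18 and 0.13. Differences between the BDL groups for *Oasl2* fell within 1.5-fold with a pseudocount of 1 and under quantile normalization. Depth is unknown, so counting error could not be given.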
